A study of Mus musculus with 4 samples.

Results

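The 35 genes described here make, take up, store and export cholesterol, together with the regulators of these steps and 4 genes of fatty acid synthesis that share a regulator with them. They were picked by symbol from a deposited table of 27179 gene IDs: 7 genes of the mevalonate steps, 11 of the sterol steps, 5 that control the sterol-sensing transcription factors SREBP, 4 of the efflux system run by the liver X receptors (LXR), 4 of intracellular transport and storage, and the 4 fatty acid genes. All 35 had a row, and all passed the filter on low values, with the lowest mean at 209.8 normalized counts over the libraries. The data are mRNA sequencing of the mouse kidney medulla, the inner kidney with the loops of Henle and collecting ducts, at postnatal day 14. The KO-labelled group held 2 libraries of the genotype Actr3-fl/fl*Cdh16-Cre, and the WT-labelled group held 2 libraries of control mice. Both groups carry the strain label C57BL/6 mixed, and the sources used here do not say whether the controls carried the floxed allele or the Cre transgene. Actr3 encodes Arp3, part of the complex from which branched actin filaments grow, and the Cdh16 promoter drives Cre in tubule epithelium, so that fibroblasts, vessels and immune cells of the medulla keep the gene. Each library was taken to be 1 animal, which the labels imply by their numbering, and p-values measure only the spread between these samples.

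Cells build cholesterol from acetyl-CoA through mevalonate, squalene and lanosterol, and the transcription factor SREBP2 raises the genes of nearly every step when sterols in the endoplasmic reticulum run low. Its relative SREBP1 acts mainly on fatty acid synthesis, while the INSIG proteins hold both factors back through the escort protein SCAP. The LXR receptors respond to oxysterols, which accumulate when cholesterol is plentiful, and raise the pumps that export it. In macrophages, which take in cell debris, lysosomal export, esterification and efflux of cholesterol are prominent.

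The libraries held 36482238 and 40784436 reads in the KO-labelled group, and 40453242 and 40342530 reads in the WT-labelled group. Actr3 itself read 12587 and 12480 normalized counts in the KO-labelled samples, against 8065 and 7275 in the WT-labelled ones. That is 1.63-fold higher in the group labelled knockout, the reverse of its label, and counts over the whole gene do not check the deletion of single exons. For this reason the groups are named by their labels throughout. Cdh16, whose promoter drives the Cre, read 41457 and 37685 normalized counts in the KO-labelled samples and 84350 and 99754 in the WT-labelled ones. The libraries differed broadly: 51.2% of the 16253 genes tested passed the test, 26.3% as higher and 24.9% as lower in the KO-labelled group. All 16 macrophage markers were among the higher genes, and their summed counts were 67279 and 66580 in the KO-labelled samples, against 13704 and 13159 in the WT-labelled ones. Markers of intercalated cells (8 of 8) and endothelium (10 of 10) were all lower, as were 9 of 10 of the proximal tubule. In bulk tissue, fewer cells of a type and less RNA per cell cannot be told apart, and this holds for each result below.

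Of the 35 genes, 15 rose and 5 fell in the KO-labelled group, and 15 did not pass the test. The share called was 57.1%, near the 51.2% of all tested genes, with 42.9% higher against 26.3%, and 14.3% lower against 24.9%. The test was limma with a variance trend on log2(normalized count + 1), with p-values adjusted over all tested genes by the Benjamini-Hochberg method and a threshold of 0.05. Fold changes are ratios of group means of normalized counts, and every log2 difference is KO-labelled minus WT-labelled on that log2 scale. Both KO-labelled samples lay above both WT-labelled ones for 23 members and below them for 8, and the groups overlapped for 4. Among all tested genes the groups did not overlap for 78.5%, with 39.8% above and 38.7% below. The median log2 difference was 0.31 over the members and 0.003 over all tested genes. Few member differences were large: 2 members, Soat1 and Npc2, passed with a log2 size of at least 1, as did 20.2% of tested genes. The median size of the log2 difference was 0.409 over all tested genes and 0.787 over the called ones.

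**Figure D1:**
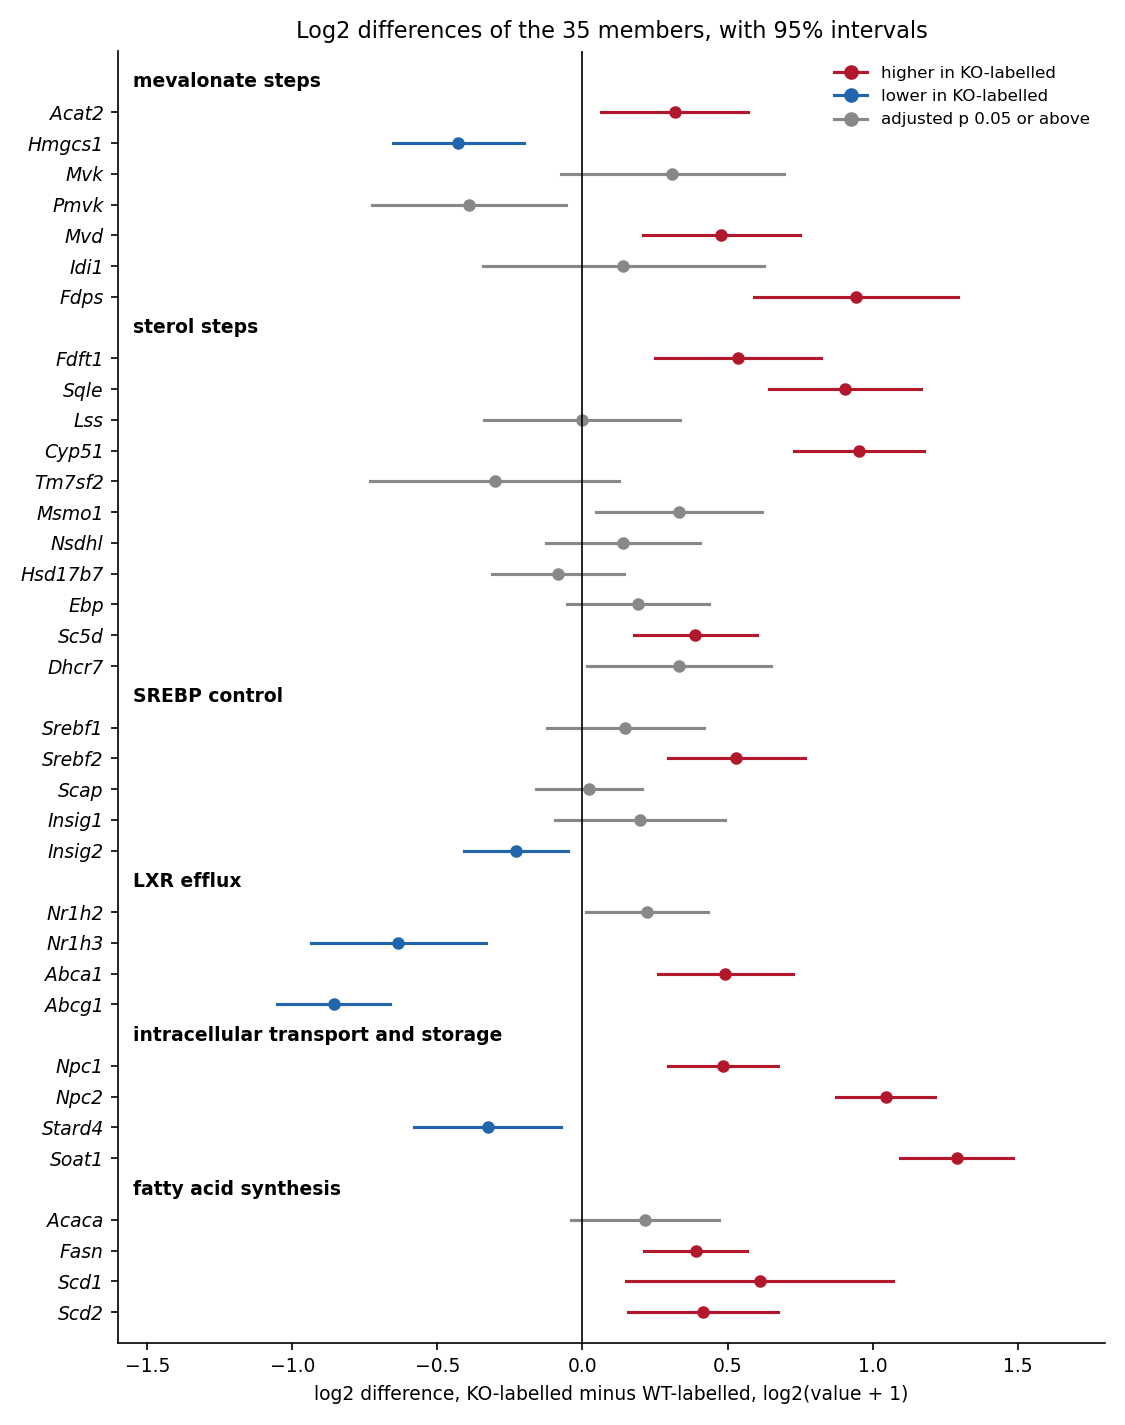
Log2 difference (KO-labelled minus WT-labelled, log2 of normalized count + 1) of each of the 35 members by role, with 95% confidence intervals from limma over 2 libraries per group and colour for the call. Soat1 at 1.29 and Npc2 at 1.05 lie farthest to the right, and Abcg1 at -0.86 and Nr1h3 at -0.63 farthest to the left.

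The synthesis arm of 18 genes was higher in part and uneven along the pathway. In the KO-labelled samples 7 genes rose (38.9%, against 26.3% of all tested genes), 1 fell (5.56%, against 24.9%) and 10 did not pass the test, with a median log2 difference of 0.31. The 3 largest rises were in Cyp51, Fdps and Sqle, each between 1.86-fold and 1.93-fold, and the 1 fall was in Hmgcs1, which has the highest level of the arm per kilobase of exon.

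Along the mevalonate steps, which run from acetyl-CoA to farnesyl diphosphate, 3 genes rose, 1 fell and 3 did not pass. That is 42.9% higher and 14.3% lower, against 26.3% and 24.9% of all tested genes. Hmgcs1 (chromosome 13, 119690351 to 119708260) encodes the synthase that makes HMG-CoA. It read 10902 and 12365 normalized counts in the KO-labelled samples, against 16360 and 14913 in the WT-labelled ones. Both KO-labelled values were lower than both WT-labelled values, 1.34-fold by the means (log2 difference -0.43 ± 0.09 SE, n = 2 libraries per group, limma adjusted p = 0.00877). Without the first KO-labelled library the Hmgcs1 difference no longer passed (adjusted p = 0.0668), and 16.0% of its exon bases overlap Gm48342 on the opposite strand. Fdps (chromosome 3, 89093588 to 89101967) encodes farnesyl diphosphate synthase, which closes this stretch. It read 1088 and 890 in the KO-labelled samples, against 470 and 557 in the WT-labelled ones. The groups were far apart, at 1.93-fold higher (log2 difference 0.94 ± 0.15 SE, limma adjusted p = 0.00196). Of the annotated exon bases of Fdps, 77.4% overlap the same-strand gene Gm43738, so its reads cannot be assigned to Fdps with certainty.

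Mvd encodes the decarboxylase that yields isopentenyl diphosphate. Its values were 783 and 849 in the KO-labelled samples and 573 and 597 in the WT-labelled ones, 1.39-fold higher without overlap (log2 difference 0.48 ± 0.11 SE, limma adjusted p = 0.0119). The call was lost without the second KO-labelled library (adjusted p = 0.0750) or the first WT-labelled one (0.0529). Acat2, a cytosolic acetoacetyl-CoA thiolase, read 969 and 934 in the KO-labelled samples against 733 and 794 in the WT-labelled ones. This 1.25-fold rise passed only narrowly (log2 difference 0.32 ± 0.11 SE, limma adjusted p = 0.0425), and it was lost whichever library was left out, at adjusted p-values between 0.0634 and 0.182. The Acat2 call was also lost with edgeR (0.0514), DESeq2 (0.0647), a replicate block (0.0908), no filter on low values (0.0506), quantile normalization (0.0524) and no variance trend (0.0642). Mvk, the mevalonate kinase, had a log2 difference of 0.31 with a 95% interval of -0.07 to 0.69. Pmvk, the next kinase, read 794 and 645 in the KO-labelled samples and 876 and 1008 in the WT-labelled ones, just short of the threshold (log2 difference -0.39, limma adjusted p = 0.0529), and it passed as lower without the first KO-labelled library (adjusted p = 0.0321). Idi1, the isomerase, overlapped between the groups, at 202 and 237 in the KO-labelled samples and 174 and 226 in the WT-labelled ones.

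Among the 11 genes of the sterol steps, from squalene to cholesterol, 4 rose, 0 fell by limma and 7 did not pass. The share called was 36.4%, all of it higher, below the 51.2% called and above the 26.3% higher of all tested genes. edgeR and DESeq2 also gave 0 lower, and at an unadjusted p under 0.05 limma gave 6 higher and 0 lower. Cyp51 (chromosome 5, 4080674 to 4104697) encodes lanosterol demethylase. It read 3809 and 3904 in the KO-labelled samples, against 2143 and 1851 in the WT-labelled ones. The KO-labelled pair differed by little and lay well above the WT-labelled pair, 1.93-fold by the means (log2 difference 0.95 ± 0.09 SE, limma adjusted p = 0.000267). Sqle (chromosome 15, 59315092 to 59331193) encodes squalene epoxidase, a rate-limiting enzyme of the sterol steps. Its counts were 2851 and 2755 in the KO-labelled samples and 1357 and 1652 in the WT-labelled ones. The difference was 1.86-fold, with no overlap (log2 difference 0.90 ± 0.11 SE, limma adjusted p = 0.000646).

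Fdft1, squalene synthase and the entry to the sterol branch, read 1335 and 1139 in the KO-labelled samples against 807 and 898 in the WT-labelled ones (1.45-fold, log2 difference 0.53 ± 0.12 SE, limma adjusted p = 0.00939). Leaving out the first KO-labelled library gave an adjusted p of 0.0630 and leaving out the first WT-labelled one 0.0524, so the Fdft1 call rests on both. Of its exon bases 20.9% overlap Ctsb on the opposite strand, and the sources used here do not give the strand setting of the counting. Sc5d, a sterol desaturase late in the pathway, read 1514 and 1502 in the KO-labelled samples and 1131 and 1173 in the WT-labelled ones. The pairs were tight and separate, at 1.31-fold (log2 difference 0.39 ± 0.09 SE, limma adjusted p = 0.0103), and the call was lost without the first KO-labelled library (0.0576).

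The 7 sterol genes that did not pass ranged in log2 difference from -0.30 to 0.33. Msmo1, a sterol methyl oxidase, read 1516 and 1235 in the KO-labelled samples against 1079 and 1093 in the WT-labelled ones (log2 difference 0.33, 95% interval 0.05 to 0.62, limma adjusted p = 0.0538), and passed without the second KO-labelled library (0.0231). Dhcr7, the reductase that acts last in one route to cholesterol, was at 775 and 665 in the KO-labelled samples and 540 and 602 in the WT-labelled ones (limma adjusted p = 0.0745). Lss, lanosterol synthase, stands between Sqle and Cyp51 in the pathway. It read 630 and 596 in the KO-labelled samples, against 551 and 684 in the WT-labelled ones, and its groups overlapped (95% interval -0.34 to 0.34). The remaining 4 were the sterol reductase Tm7sf2 (-0.30, interval -0.73 to 0.13), the dehydrogenase Nsdhl (0.14, -0.13 to 0.41), the ketoreductase Hsd17b7 (-0.08, -0.31 to 0.14) and the isomerase Ebp (0.19, -0.05 to 0.43).

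Because Hmgcs1 is so abundant, the summed counts of the arm hide the other genes. Summed over 18 genes, normalized counts were 31329 and 31877 in the KO-labelled samples and 30644 and 30071 in the WT-labelled ones, a ratio of 1.04. Without Hmgcs1 the other 17 summed to 20427 and 19512 in the KO-labelled samples and 14284 and 15158 in the WT-labelled ones, a ratio of 1.36. Per kilobase of annotated exon, Hmgcs1 had the highest level of the arm in both groups, at 3341 normalized counts per kilobase in the KO-labelled group and 4491 in the WT-labelled group. Sqle ranked second of the 18 in the KO-labelled group at 1016 per kilobase, and stood at 546 in the WT-labelled group. Idi1 had the lowest level per kilobase in both, at 72.5 in the KO-labelled group and 66.1 in the WT-labelled group.

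**Figure D2:**
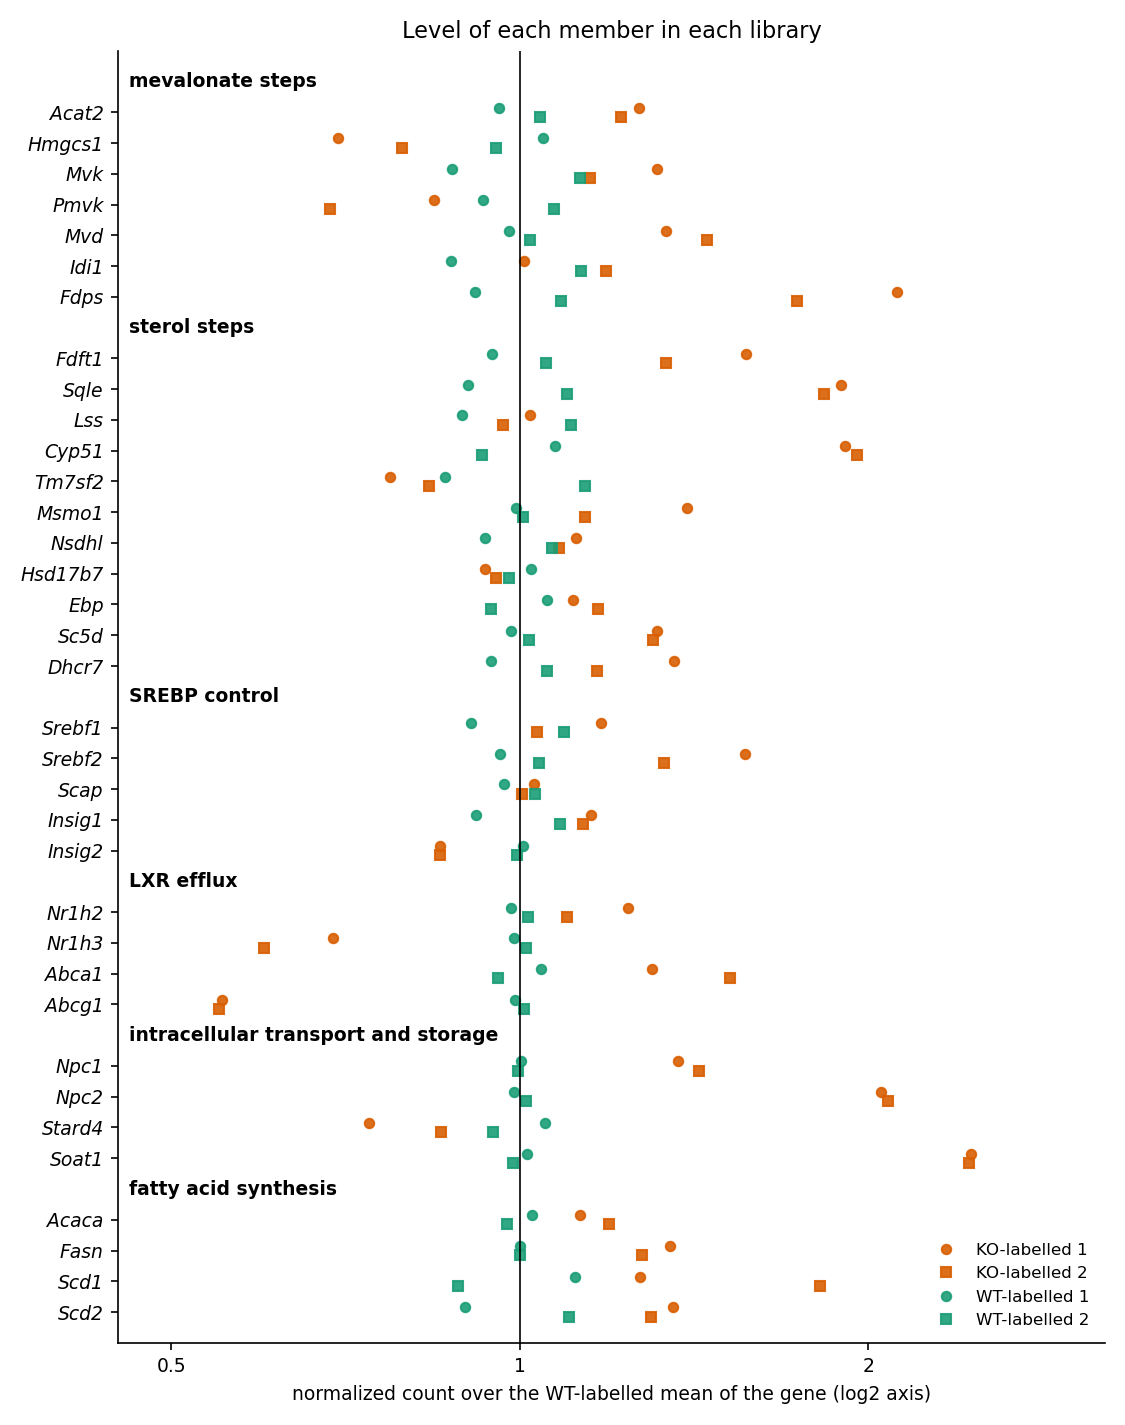
Level of each member in each library as its normalized count over the mean of the WT-labelled samples, on a log2 axis, grouped by role, with 1 point per library. The KO-labelled points of Cyp51, Sqle and Fdps sit to the right of the line at 1 and apart from the WT-labelled points, while those of Hmgcs1 sit to its left and those of Lss and Idi1 overlap.

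The promoters of the called synthesis genes with an entry are shown because the genes share a known regulator, yet 1 of them moved the other way. The sequences are from RefSeq on GRCm38.p6, where 27 of the 35 members have an entry. Printed are the 250 bases before the start, read 5′ to 3′ on the gene's strand, for Hmgcs1, which fell (chr13:119690101-119690350, plus strand), and for Mvd (chr8:122443423-122443672, minus strand), Cyp51 (chr5:4104698-4104947, minus strand) and Sc5d (chr9:42264301-42264550, minus strand), which rose. Acat2 (chr17:12960726-12960975, minus strand) rose as well and has no capitals. Capitals mark the sterol regulatory element TCACNCCAC and the CCAAT box, which reads ATTGG on the other strand. Only this spelling of the element was searched, and any other spelling stays in lower case.
Hmgcs1: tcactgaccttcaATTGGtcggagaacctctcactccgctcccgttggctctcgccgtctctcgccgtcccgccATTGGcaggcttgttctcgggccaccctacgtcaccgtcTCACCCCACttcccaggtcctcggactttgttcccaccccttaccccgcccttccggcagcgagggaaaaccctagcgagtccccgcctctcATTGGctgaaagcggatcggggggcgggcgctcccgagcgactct
Mvd: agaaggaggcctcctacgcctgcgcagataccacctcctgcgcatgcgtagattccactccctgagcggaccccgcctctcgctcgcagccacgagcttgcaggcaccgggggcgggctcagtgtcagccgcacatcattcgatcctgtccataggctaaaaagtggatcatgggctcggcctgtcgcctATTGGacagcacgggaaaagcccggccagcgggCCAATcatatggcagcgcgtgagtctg
Cyp51: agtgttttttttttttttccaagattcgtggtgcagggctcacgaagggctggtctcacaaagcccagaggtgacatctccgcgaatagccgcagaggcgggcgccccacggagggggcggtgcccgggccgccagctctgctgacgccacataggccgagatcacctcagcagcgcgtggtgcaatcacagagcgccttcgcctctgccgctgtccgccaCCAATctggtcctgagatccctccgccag
Sc5d: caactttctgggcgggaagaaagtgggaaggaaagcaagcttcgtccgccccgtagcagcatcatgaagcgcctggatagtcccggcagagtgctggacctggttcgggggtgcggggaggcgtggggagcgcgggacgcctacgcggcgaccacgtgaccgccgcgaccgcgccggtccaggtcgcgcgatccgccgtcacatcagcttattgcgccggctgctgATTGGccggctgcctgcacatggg
Acat2: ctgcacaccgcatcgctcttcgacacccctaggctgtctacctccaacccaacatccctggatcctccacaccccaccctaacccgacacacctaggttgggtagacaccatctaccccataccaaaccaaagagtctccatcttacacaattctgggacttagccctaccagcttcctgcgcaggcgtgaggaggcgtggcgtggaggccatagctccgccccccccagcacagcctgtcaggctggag

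The longer capital run in Hmgcs1, TCACCCCAC, was the 1 match to that spelling of the sterol regulatory element among members with an entry. Its first base lies 137 bases before the start. Fdps, Fdft1 and Sqle, which rose, have no entry and were not searched. Motifs were searched on both strands in windows of 300 bases, to 50 bases past the start, and 1.24% of the 32851 promoters held this element. CCAAT was in the promoters of 14 of 15 synthesis genes with an entry (93.3%), against 41.9% of the tested genes with an entry and 37.4% of all promoters. Acat2 was the synthesis gene without it, and none of the 3 LXR genes with an entry held it. The GC box GGGCGG was also in 14 of 15, against 64.8% of the tested genes and 35.7% of promoters. The E-box CACGTG was in 6 of the 27 members, Abca1, Dhcr7, Hsd17b7, Insig1, Sc5d and Scap, against 11.1% of the tested genes and 7.15% of promoters. The LXR direct repeat, AGGTCA given a second time after 4 bases of any kind, was in 5 of the 32851 promoters and in none of the members with an entry. A match is a run of letters in this window and is not a measured binding site.

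Among the 5 genes of SREBP control, 1 rose, 1 fell and 3 did not pass. At 20% higher and 20% lower, the group lay near the 26.3% and 24.9% of all tested genes. Srebf2 (chromosome 15, 82147269 to 82205379), which encodes SREBP2, read 6870 and 5846 in the KO-labelled samples, against 4220 and 4563 in the WT-labelled ones. It was 1.45-fold higher without overlap (log2 difference 0.53 ± 0.10 SE, limma adjusted p = 0.00427). Insig2, which retains SREBP in the endoplasmic reticulum, read 2672 and 2673 in the KO-labelled samples and 3153 and 3112 in the WT-labelled ones. This fall was small, 1.17-fold (log2 difference -0.23 ± 0.08 SE, limma adjusted p = 0.0394), and was not called when any 1 library was left out, at adjusted p-values between 0.0857 and 0.157. Insig1, its paralog and an SREBP target, was at 814 and 802 in the KO-labelled samples and 648 and 765 in the WT-labelled ones (log2 difference 0.20, 95% interval -0.10 to 0.49). Srebf1, the gene of SREBP1, overlapped between groups (0.15, -0.12 to 0.42). Scap, the escort protein, also overlapped, at 4035 and 3937 in the KO-labelled samples and 3801 and 4047 in the WT-labelled ones (0.02, -0.16 to 0.21).

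The LXR efflux genes split: the exporter Abca1 rose, while the exporter Abcg1 and the receptor Nr1h3 fell. Of these 4 genes 25% were higher and 50% lower, against 26.3% and 24.9% of all tested genes. Abca1 (chromosome 4, 53030789 to 53159988) passes cholesterol to lipid-poor apolipoprotein. It read 7395 and 8643 in the KO-labelled samples, against 5928 and 5448 in the WT-labelled ones, 1.41-fold higher (log2 difference 0.49 ± 0.10 SE, limma adjusted p = 0.00572). Abcg1 (chromosome 17, 31057694 to 31117984), which exports cholesterol to mature lipoprotein particles, read 1347 and 1340 in the KO-labelled samples and 2413 and 2458 in the WT-labelled ones. Both pairs were tight and the groups far apart, at 1.81-fold lower (log2 difference -0.86 ± 0.08 SE, limma adjusted p = 0.000225). Nr1h3, which encodes LXR-alpha, read 491 and 429 in the KO-labelled samples and 704 and 722 in the WT-labelled ones, 1.55-fold lower (log2 difference -0.63 ± 0.13 SE, limma adjusted p = 0.00586). Nr1h2, which encodes LXR-beta, was at 3663 and 3245 in the KO-labelled samples and 2904 and 3005 in the WT-labelled ones, and did not pass (log2 difference 0.22, interval 0.01 to 0.43, limma adjusted p = 0.0728).

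Set against each other by their medians, the synthesis arm was higher relative to the efflux arm in both KO-labelled samples. The median of the 18 synthesis genes, as the log2 ratio to the WT-labelled mean, was 0.37 and 0.22 in the KO-labelled samples and -0.08 and 0.08 in the WT-labelled ones. The median of the 4 LXR genes was -0.11 and -0.30 in the KO-labelled samples, against -0.02 and 0.02 in the WT-labelled ones. Synthesis minus efflux was thus 0.48 and 0.52 in the KO-labelled samples and -0.06 and 0.06 in the WT-labelled ones. The WT-labelled values mirror each other because each gene was set against their own mean. The fitted log2 differences give 0.52 between the medians. The spread between replicates (SD 0.07) leaves out the spread among the 4 LXR genes, whose log2 differences ran from -0.86 to 0.49. No test is given for the difference of 0.52. With 2 libraries against 2, an exact two-sided permutation test cannot go below p = 0.333. The efflux median lies between genes that moved in opposite directions and describes none of them. Summed normalized counts gave the other order, with a KO-labelled to WT-labelled ratio of 1.13 for the LXR genes and 1.04 for the synthesis arm. The contrast of the arms thus depends on the summary used.

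The largest differences of the whole list were in intracellular transport and storage, where 3 of 4 genes rose and 1 fell. The shares were 75% higher and 25% lower, against 26.3% and 24.9% of all tested genes. The median log2 difference was 0.76. Soat1 (chromosome 1, 156428108 to 156474328), which esterifies cholesterol for storage in droplets, read 2873 and 2861 in the KO-labelled samples, against 1189 and 1155 in the WT-labelled ones. It was 2.45-fold higher with little spread within either group (log2 difference 1.29 ± 0.08 SE, limma adjusted p = 4.33e-05). Npc2 (chromosome 12, 84754559 to 84773112) encodes the soluble protein that hands cholesterol to NPC1 inside lysosomes. It read 11012 and 11167 in the KO-labelled samples and 5310 and 5437 in the WT-labelled ones, 2.06-fold higher (log2 difference 1.05 ± 0.07 SE, limma adjusted p = 5.8e-05). Per kilobase of annotated exon, Npc2 had the highest level of all members in the KO-labelled group at 3362, against 1629 and the third rank in the WT-labelled group.

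Npc1, the lysosomal membrane partner of Npc2, read 2542 and 2651 in the KO-labelled samples, against 1862 and 1850 in the WT-labelled ones. The rise was smaller than that of Npc2 in size, at 1.40-fold (log2 difference 0.48 ± 0.08 SE, limma adjusted p = 0.00251). Stard4, a cytosolic sterol carrier and SREBP2 target, read 1511 and 1745 in the KO-labelled samples and 2146 and 1934 in the WT-labelled ones. It was 1.25-fold lower (log2 difference -0.33 ± 0.11 SE, limma adjusted p = 0.0383), and the call was lost without the first KO-labelled library (0.216), the first WT-labelled one (0.166) or the second WT-labelled one (0.0505). The macrophage markers counted above moved with Soat1, Npc2, Npc1 and Abca1, while Abcg1, Nr1h3 and Stard4 moved the other way. The most abundant marker, the lysozyme gene Lyz2, read 20794 and 19259 in the KO-labelled samples and 2402 and 2848 in the WT-labelled ones. The part of macrophages in these differences was not tested.

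**Figure D3:**
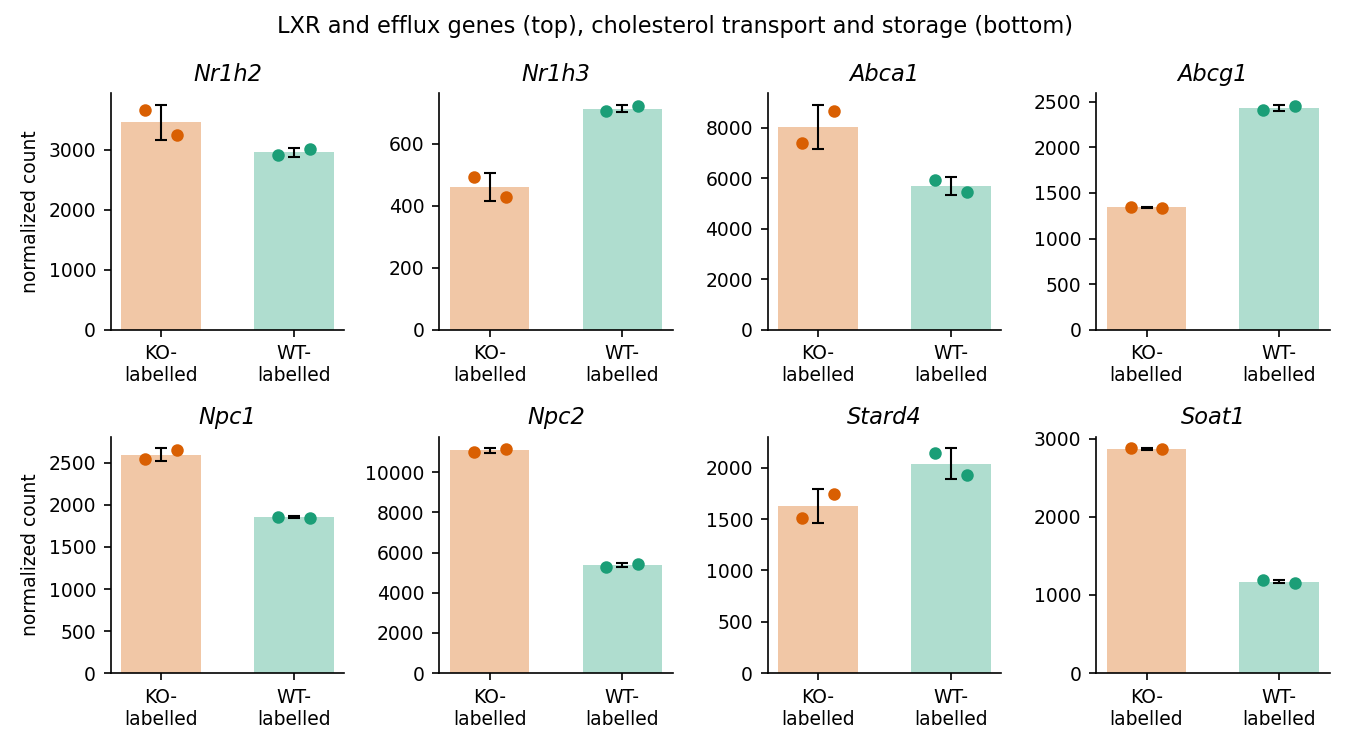
Normalized counts of the 4 LXR efflux genes and the 4 transport and storage genes in each library, with bars at the group means, error bars of 1 SD over 2 libraries and a point per library. Soat1, Npc2, Npc1 and Abca1 are higher and Abcg1, Nr1h3 and Stard4 lower in both KO-labelled samples, and the Nr1h2 difference did not pass the test.

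All 4 genes of fatty acid synthesis had higher means in the KO-labelled group, and 3 passed the test, with a median log2 difference of 0.40. The share higher was 75%, against 26.3% of all tested genes. Fasn, fatty acid synthase, read 4839 and 4579 in the KO-labelled samples, against 3594 and 3591 in the WT-labelled ones (1.31-fold, log2 difference 0.39 ± 0.08 SE, limma adjusted p = 0.00492). Scd2, a desaturase that makes monounsaturated fatty acids, read 16349 and 15641 in the KO-labelled samples and 10814 and 13291 in the WT-labelled ones. Its 1.33-fold rise (log2 difference 0.42 ± 0.11 SE, limma adjusted p = 0.0176) was not called without the first KO-labelled library (0.0735) or the first WT-labelled one (0.0693). Scd1, its paralog, read 845 and 1209 in the KO-labelled samples and 743 and 589 in the WT-labelled ones, with the widest spread of the 4. The 1.54-fold rise (log2 difference 0.61 ± 0.19 SE, limma adjusted p = 0.0351) was lost without the second KO-labelled library (0.167) or the second WT-labelled one (0.171). The Scd1 call was also lost with no filter on low values (limma adjusted p = 0.0670), quantile normalization (0.0513) and no variance trend (0.110). Without a variance trend the Scd2 call was lost as well (0.0797). Acaca, the acetyl-CoA carboxylase of fatty acid synthesis, did not pass, at 837 and 886 in the KO-labelled samples and 760 and 724 in the WT-labelled ones (log2 difference 0.21, interval -0.04 to 0.47).

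Genes of the same pathways outside the list were read from 8 further lists, given by their counts and a few genes each, and the counts are read against the 26.3% higher and 24.9% lower of all tested genes. Of 6 other synthesis genes tested, 3 rose and 1 fell, with a median log2 difference of 0.30. Erg28, a scaffold of the sterol demethylation enzymes, read 1917 and 1758 in the KO-labelled samples and 1179 and 1370 in the WT-labelled ones (log2 difference 0.53, limma adjusted p = 0.00621). Aacs, which makes acetoacetyl-CoA from ketone bodies, was also higher (0.52, adjusted p = 0.00762). Acat1, the mitochondrial thiolase that mirrors Acat2, was much lower, at 5846 and 6058 in the KO-labelled samples against 16201 and 17457 in the WT-labelled ones. The Acat1 difference was 2.83-fold (log2 difference -1.50, limma adjusted p = 2.14e-05), opposite in sign to that of Acat2.

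In the isoprenoid branch, which leaves the pathway after Fdps, 1 of 10 genes rose and 3 fell (median -0.18). Pdss1, a subunit of the synthase for the ubiquinone tail, read 252 and 228 in the KO-labelled samples and 384 and 438 in the WT-labelled ones (log2 difference -0.77, limma adjusted p = 0.00618). Nus1, a subunit of the enzyme for dolichol, was 1.29-fold lower (adjusted p = 0.00959), and the call was lost without the first KO-labelled library (0.0625). Of the 10 genes for SREBP cleavage and sterol-regulated degradation, 1 rose and 0 fell by limma, edgeR and DESeq2 (median 0.07, with 3 higher and 0 lower at an unadjusted p under 0.05). It was Mbtps2, the protease that makes the last cut of SREBP, at 1747 and 1662 in the KO-labelled samples and 1432 and 1311 in the WT-labelled ones (log2 difference 0.31, limma adjusted p = 0.0281). That call was lost without the first KO-labelled (0.144), the second KO-labelled (0.0706) or the second WT-labelled library (0.112).

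Lipoprotein uptake genes moved both ways, with 5 higher and 3 lower of 11 tested (median 0.03). Lrp1, a large endocytic receptor, read 15961 and 15837 in the KO-labelled samples, against 8978 and 8976 in the WT-labelled ones. The pairs were nearly level within each group, at 1.77-fold higher (log2 difference 0.82, limma adjusted p = 0.000155). Lrp8, a receptor of the same family, read 474 and 296 in the KO-labelled samples and 48.3 and 44.7 in the WT-labelled ones, 8.28-fold higher (limma adjusted p = 0.000169). Vldlr, another member of that family, fell to 7260 and 7595 in the KO-labelled samples, against 11712 and 11473 in the WT-labelled ones (log2 difference -0.64, limma adjusted p = 0.000489).

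Other LXR targets and efflux genes also moved both ways, 4 higher and 3 lower of 13 tested (30.8% and 23.1%, near the shares of all tested genes, median 0.00). Apoc2, a cofactor of lipoprotein lipase, read 77.2 and 63.1 in the KO-labelled samples and 2.95 and 7.95 in the WT-labelled ones (limma adjusted p = 0.00111). Abca7, a lipid transporter related to Abca1, moved opposite to it, at 688 and 622 in the KO-labelled samples and 1546 and 1605 in the WT-labelled ones (2.41-fold lower, limma adjusted p = 0.00012). Nr0b2, a nuclear receptor that represses other receptors, was at 6.44 and 6.59 in the KO-labelled samples and 61.1 and 39.8 in the WT-labelled ones (limma adjusted p = 0.00163).

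Of 15 other genes of sterol transport and esters that were tested, 8 fell and 0 rose by limma (median -0.24), edgeR and DESeq2 also gave 0 higher, and 1 was higher at an unadjusted p under 0.05. Osbpl1a, an oxysterol-binding protein of late endosomes, read 2196 and 2129 in the KO-labelled samples and 6579 and 5897 in the WT-labelled ones, 2.88-fold lower (limma adjusted p = 2.71e-05). Osbp, which exchanges cholesterol for a phosphoinositide at the Golgi, was 1.56-fold lower (log2 difference -0.64, adjusted p = 0.000782). Nceh1, which hydrolyses the esters that Soat1 makes, moved opposite to Soat1, at 2974 and 3199 in the KO-labelled samples and 4422 and 4275 in the WT-labelled ones (log2 difference -0.50, limma adjusted p = 0.00215). Among 8 genes of oxysterols and side-chain oxidation, 2 rose and 1 fell (median 0.02). Cyp7b1, an oxysterol hydroxylase, was at 515 and 513 in the KO-labelled samples and 219 and 206 in the WT-labelled ones (2.42-fold higher, limma adjusted p = 0.000448).

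Other fatty acid synthesis genes were divided, with 5 higher and 7 lower of 16 (median -0.06). The genes Fads1 and Fads2, which desaturate polyunsaturated fatty acids, rose with Scd1 and Scd2. Fads1 read 4585 and 4756 in the KO-labelled samples and 2608 and 3027 in the WT-labelled ones (log2 difference 0.73, limma adjusted p = 0.000793), and Fads2 had a log2 difference of 0.49. Acacb, the carboxylase that restrains fatty acid oxidation, fell to 699 and 724 in the KO-labelled samples, against 2240 and 2364 in the WT-labelled ones (3.23-fold, limma adjusted p = 2.56e-05). Gpam, which starts glycerolipid synthesis, was 3.01-fold lower (limma adjusted p = 3.78e-05). The elongases Elovl6 and Elovl7 were 2.05-fold and 2.02-fold lower, with adjusted p-values of 0.000111 and 0.000101.

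**Figure D4:**
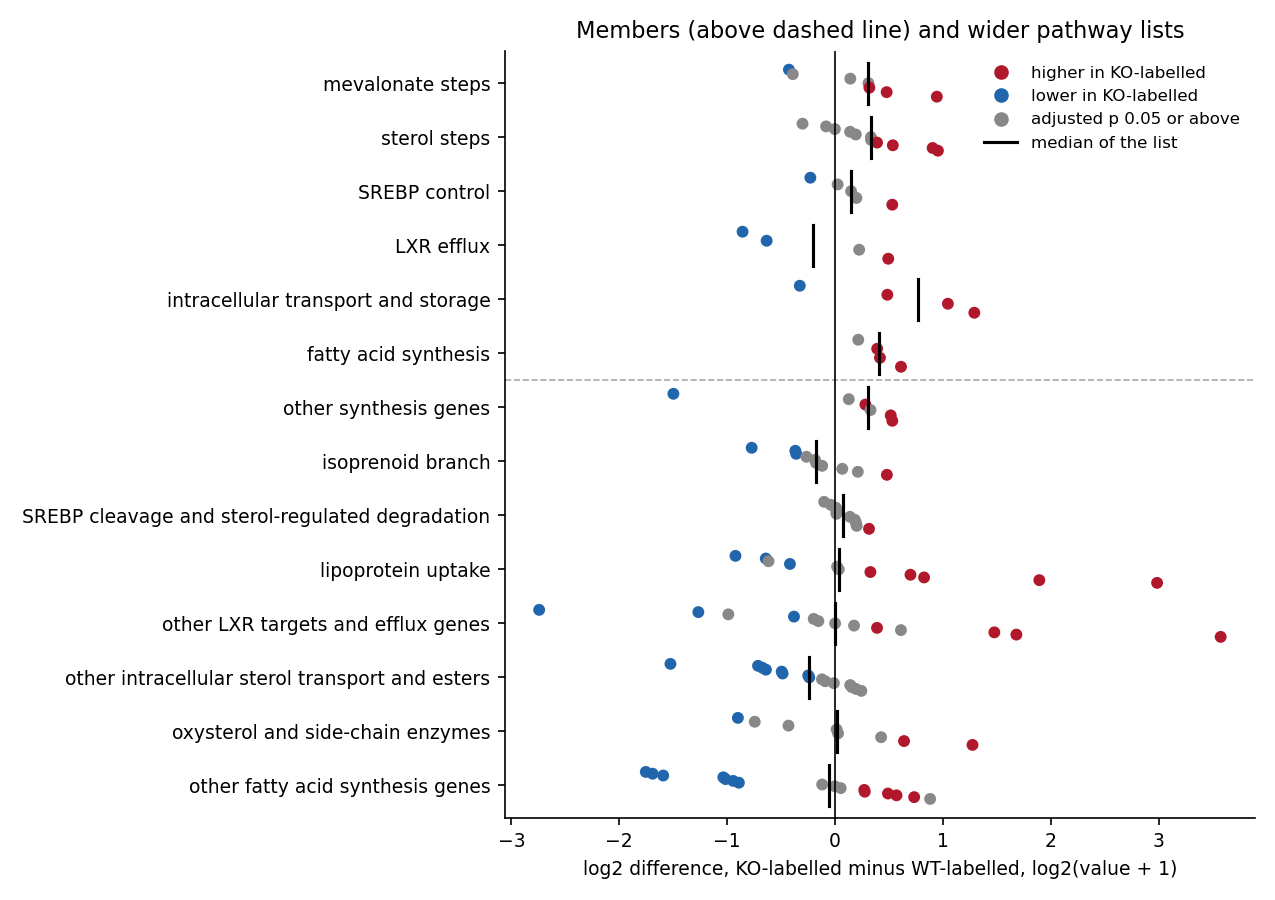
Log2 difference (KO-labelled minus WT-labelled, log2 of normalized count + 1) of each tested gene in the 6 role groups and the 8 wider lists, 1 point per gene, with the median of each list marked. The medians run from -0.24 for other sterol transport and esters to 0.76 for the members of transport and storage, and the vertical line at 0 lies near the median of 0.003 over all tested genes.

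Markers of the cells that a medulla sample can hold moved in both directions beside these results, and their part in them was not tested. The 10 thick ascending limb markers held 8 lower and 1 higher. They summed to 261888 and 183455 normalized counts in the KO-labelled samples and 505340 and 523925 in the WT-labelled ones. Most of the KO-labelled sums was Umod, which was not called, at 203680 and 138033. In the WT-labelled samples Umod read 136828 and 143709. Collecting duct principal cell markers held 7 lower of 10. Proximal tubule markers summed to 52925 and 76802 in the KO-labelled samples and 206850 and 170687 in the WT-labelled ones. Kap and Aqp1 made up most of each sum, with Kap at 25130 and 42716 (KO-labelled) and 118424 and 58779 (WT-labelled). Some of these markers also differed within groups, as Slc34a1 did, at 1171 and 3902 (KO-labelled) and 9589 and 18430 (WT-labelled). The cause of that spread was not tested. Endothelial markers summed to 34791 and 32993 in the KO-labelled samples and 95955 and 97823 in the WT-labelled ones. Fibroblast and pericyte markers held 6 higher and 1 lower of 10, with sums of 489385 and 568311 in the KO-labelled samples and 198407 and 206467 in the WT-labelled ones. Of 8 cycling cell markers 3 were higher and 1 lower.

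Fat around the kidney and the adrenal gland carry out fatty acid or sterol synthesis, and their markers were read for this reason. Of 10 adipocyte markers 5 passed the filter and 1, Cfd, was called, as higher, and the defining genes Adipoq, Plin1, Cidec, Lep and Retn were at 18.8 normalized counts or fewer in every library. Adipocyte markers summed to 3741 and 3610 in the KO-labelled samples and 3925 and 4584 in the WT-labelled ones, of which Pnpla2 and Lipe, which are also expressed outside fat, made up most. The second library of each group was the higher for the more specific Cfd, at 11.8 and 64.1 in the KO-labelled samples and 0 and 6.96 in the WT-labelled ones, and for Ucp1, at 9.65 and 112 in the KO-labelled samples and 1.97 and 32.8 in the WT-labelled ones. Their part in the fatty acid results was not tested. Of 8 adrenal cortex markers 4 were tested, 1 higher (Mc2r) and 1 lower (Akr1b7), and Cyp11b2 was at 0 in all 4 libraries. Their sums were 592 and 719.8 in the KO-labelled samples and 609 and 473 in the WT-labelled ones, and Cyp11b1 had at most 3.22 normalized counts in any library.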

How the data were processed

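Total RNA of kidney medulla from 2 KO-labelled and 2 WT-labelled mice at postnatal day 14 was sequenced as mRNA libraries, and groups were taken from the sample titles. The authors deposited a signal for each gene in each library, called a normalized count here: read counts divided by a size factor of that library. The values show this, since within each column 100% were whole multiples of 1 step, within 0.001. Tools named in the submitters' processing notes are DESeq2 2.11.40.7, featureCounts 2.0.1, HISAT2 2.2.1 and fastp 0.20.1, with the builds GRCm38 and mm10. The sources used here do not give the annotation, strand setting or treatment of multimapping reads, so that counts of overlapping genes and near-identical paralogs are uncertain. Of 27179 Entrez IDs, 25275 matched a symbol in RefSeq GRCm38.p6, and the rest held 0.325% to 0.339% of the totals. Coordinates are from the same RefSeq table.

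limma 3.58.1 in R 4.3.3 was run with a variance trend on log2(value + 1), over 16253 genes whose mean was 10 or more, two-sided, with Benjamini-Hochberg adjustment and a threshold of 0.05. After pooling, the fit had 6.96 degrees of freedom. Confidence intervals are at 95%. Exon lengths and overlaps are the union of GENCODE M21 exons, which can exceed the transcript in use. The code of the fits was run on simulated data. These held far fewer changed genes than were called here, so they do not show the error rate in these libraries. Alternatives were pseudocounts of 0.5 and 5, no filter or a mean of at least 50, other scalings and variance models, edgeR 4.0.16 and DESeq2 1.42.0 on recovered reads, a replicate block, and leaving out each library. Replicates were no copies of each other: their recovered reads differed with a chi-square per degree of freedom of 16.9 (KO-labelled) and 22.3 (WT-labelled), and reads are not independent molecules. The members and lists were chosen with earlier results of these data known. Text names all members, Actr3 and Cdh16, up to 4 genes of each wider list by adjusted p, those that moved with or against a member of the same step, and the most abundant markers. Adipocyte and adrenal markers of low level were named with their values in view. Some genes, including ones the rule selects, are not reported here.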

Additional observations from a re-analysis of the deposited data

How the results depend on the processing

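Of the 20 called members, 11 kept their call under all 17 alternatives (Fdps, Sqle, Cyp51, Srebf2, Nr1h3, Abca1, Abcg1, Npc1, Npc2, Soat1 and Fasn), and 11 of the 15 uncalled ones stayed uncalled under all of them. No called member changed sign under the alternatives run, while 3 uncalled ones did: Idi1 (log2 difference -0.04 to 0.33), Lss (-0.16 to 0.15) and Scap (-0.02 to 0.07). No scaling moved the median of all tested genes beyond 0.05. With total count scaling, Dhcr7 (adjusted p = 0.0456) and Nr1h2 (0.0336) passed as higher. Msmo1 passed with upper quartile and total count scaling and with a robust trend, and Pmvk, as lower, with quantile normalization and a robust trend. Over all genes edgeR called 4190 higher and 4113 lower, and DESeq2 4006 and 3817. Over all tested genes, deviations of libraries with the same replicate number had a correlation of -0.06, which cannot show whether samples were paired. The fit with a replicate block called 3810 genes higher and 3619 lower. With 2 libraries a group, and 1 where a library was left out (its spread then comes from the other group), the 3 smallest called member differences by fold (Insig2, Acat2 and Stard4) were each lost when single libraries were left out. The cause of the changes below was not tested.

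Counts of lower genes in the mevalonate steps and in the synthesis arm were 2 with quantile normalization, 0 without a variance trend and 2 with a robust trend. The count of lower SREBP control genes was 0 with total count scaling, without a trend and with the replicate block. Total count scaling gave 2 higher LXR genes. The lower transport and storage count was 0 without a filter, with total count scaling, without a trend and with the replicate block, and its median was 0.81 with total count scaling. Higher fatty acid genes numbered 1 without a trend, and their median was 0.45 with total count scaling and 0.44 with quantile normalization. In the isoprenoid branch 2 genes were higher with total count scaling and 0 without a trend, where 1 was lower. Higher SREBP cleavage genes numbered 3 with total count scaling and with quantile normalization, and 0 without a trend and with the replicate block. Lower uptake genes numbered 1 without a trend. Other transport and ester genes had 1 higher with total count scaling and with quantile normalization, and 5 lower with the replicate block. Lower oxysterol genes numbered 2 with quantile normalization, DESeq2 and the replicate block. Other fatty acid genes had 3 higher without a trend and with the replicate block. Lower members numbered 3 with total count scaling, 2 without a trend and 3 with the replicate block.

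Leaving out each library in turn gave ranges of 1 to 2 higher mevalonate genes (median 0.13 to 0.38), 2 to 5 higher sterol genes, 4 to 6 higher synthesis arm genes, 0 to 0 lower SREBP control genes (median 0.016 to 0.28) and 0 to 1 lower transport and storage genes. The fatty acid median ranged from 0.33 to 0.42. The isoprenoid branch had 0 to 1 higher and 1 to 3 lower, SREBP cleavage 0 to 1 higher, and uptake 1 to 3 lower. Other transport and esters had 0 to 1 higher and 5 to 5 lower, oxysterols 1 to 2 lower, and other fatty acid genes 3 to 4 higher. Over all members, 3 to 4 were lower and the median ranged from 0.23 to 0.34.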
